A study of Homo sapiens with 6 samples.

Results

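The CCR4-NOT subunit genes are described here in MKN45, a gastric cancer line of human origin in wide use, with the 12 listed transcripts of the catalytic subunit gene CNOT8 in most detail. Cells of 3 libraries were transfected with an shRNA directed at tcons_00001221 (target shRNA), and cells of 3 libraries with a control shRNA. An shRNA is a hairpin from which the cell makes a short guide strand, which directs the silencing of RNAs that match it. All 6 libraries share the parental line and the transfection. The labels do not say whether the libraries of a group came from separate cultures, so any p-value measures the spread between these libraries only. The tables hold FPKM (fragment number divided by transcript length and by the mapped total of the library) for 11658 protein-coding genes and 30432 transcripts. Rows were taken by gene name, for CNOT1, CNOT2, CNOT3, CNOT4, CNOT6, CNOT6L, CNOT7, CNOT8, CNOT10 and CNOT11. All 10 genes were found, with 62 transcripts. The set was selected on measured values of this same contrast, namely the FPKM shares of the CNOT8 transcripts in target and control libraries. Differences of these genes between target and control libraries are therefore a description and carry no test.

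CCR4-NOT is the main machine that shortens the poly(A) tails of messenger RNAs in the cytoplasm, a step that silences an mRNA and commits it to decapping or decay. CNOT1 is the scaffold on which the other subunits assemble. A pair of nucleases does the cutting: either CNOT7 or CNOT8, paralogs of the CAF1 type, and either CNOT6 or CNOT6L, paralogs of the CCR4 type. CNOT2 and CNOT3 form the NOT module, CNOT10 and CNOT11 form a module at the other end of the scaffold, and CNOT4 is an E3 ubiquitin ligase that in human cells binds the complex less stably.

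The 3 CNOT8 transcripts on which the description turns differ at their 5' ends. In GENCODE 29 (GRCh38), CNOT8-001, CNOT8-010 and CNOT8-006 have the same 876 coding bases, a reading frame of 292 codons, and begin at different bases upstream of it. CNOT8-006 begins first, CNOT8-010 begins 265 bases further downstream and CNOT8-001 begins 294 bases downstream. The first exon of CNOT8-001 is 223 bases long and that of CNOT8-010 is 300 bases. CNOT8-006 has an exon of 274 bases and another of 130 bases in their place. The junctions that set the models apart are shown because they are the stretches that tell these transcripts from each other. Each is given on the plus strand of chromosome 5, with the last 15 bases of the upstream exon in capitals and the first 15 bases of the downstream exon in lower case.
CNOT8-001, exon 1 to exon 2: GCCCTGTCGGTCCCGatcagaccaaacatt
CNOT8-010, exon 1 to exon 2: GTAAGATGAAAGAGTatcagaccaaacatt
CNOT8-006, exon 1 to exon 2: GACTCTAGAGAGCAGgagcagatccggggt
The junction listed for CNOT8-001 is also present in CNOT8-006, between its exons 2 and 3, where it joins chr5:154858754-154858768 to chr5:154863207-154863221. Of the 3, only CNOT8-010 holds its own junction, between chr5:154858802-154858816 and the same downstream exon. Only CNOT8-006 holds the junction between chr5:154858511-154858525 and chr5:154858639-154858653.

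The 3 models are otherwise nearly the same molecule. They share 2434 exonic bases, which is 96.3% of CNOT8-001 (2528 bases), 93.5% of CNOT8-010 (2604 bases) and 89.9% of CNOT8-006 (2708 bases). CNOT8-001 has 1 base that neither of the others has, its last, while CNOT8-010 has 68 and CNOT8-006 has 265. The 5' untranslated region is 295 bases in CNOT8-001, 372 bases in CNOT8-010 and 476 bases in CNOT8-006. CNOT8-001 thus differs from CNOT8-010 in 78 bases, of which 77 lie before the start codon. The models can be told apart in these bases and at their junctions only.

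**Figure D1:**
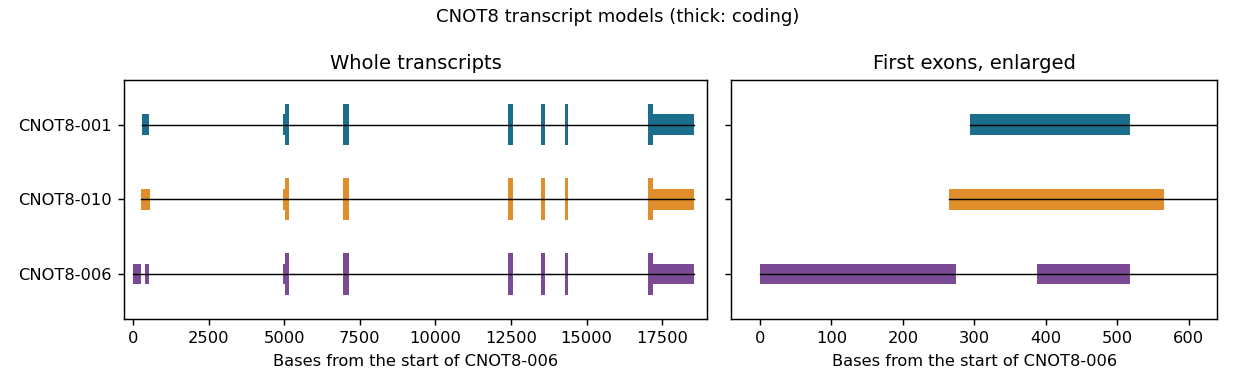
Exon models of CNOT8-001, CNOT8-010 and CNOT8-006, drawn by distance in bases from the start of CNOT8-006, with coding parts thick; the right panel enlarges the first exons. The models differ before the start codon, where CNOT8-010 starts 265 and CNOT8-001 starts 294 bases into the drawing, and all exons from the one with the start codon onward coincide but for 1 base at the 3' end.

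The start sites lie in a shared upstream region. RefSeq (GRCh38.p14) places CNOT8 starts at 3 sites, of which the first lies 3 bases before the start of CNOT8-006 and another coincides with the start of CNOT8-010. The 220 bases upstream of all of these models, chr5:154857999-154858218 on the plus strand, are shown because the 3 transcripts diverge just downstream of them; nothing is in capitals, as no motif searched was found in them.
CNOT8 upstream region: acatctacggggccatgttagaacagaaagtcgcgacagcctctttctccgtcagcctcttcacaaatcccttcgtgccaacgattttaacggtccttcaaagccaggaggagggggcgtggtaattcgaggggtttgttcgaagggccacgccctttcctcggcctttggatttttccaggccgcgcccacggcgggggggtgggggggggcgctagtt
Searched on both strands, the TATA box letters TATAAA, the CCAAT box letters CCAAT and the GC box letters GGGCGG gave no match in these 220 bases. Over all 35097 RefSeq promoter windows of 300 bases, 11.5% hold TATAAA, 34.6% hold CCAAT and 44.9% hold GGGCGG. The windows around the other CNOT8 starts hold GGGCGG. The first window has 56.3% G and C, against a median of 58.7% over all windows. These letters are a description of the sequence only.

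At the level of the gene, CNOT8 values of target and control libraries overlapped. CNOT8 (chr5:154237113-154256353, plus strand, GRCh37) had 41.1, 35.4 and 38.9 FPKM in the target libraries, against 39.4, 39.8 and 36.6 FPKM in the control libraries. The means were 38.5 ± 2.90 and 38.6 ± 1.76 FPKM in target and control libraries (SD, n = 3 each). The difference on the log2(FPKM + 1) scale, target minus control, was -0.01 with a standard error of 0.07.

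At the level of transcripts, CNOT8-001 led in every control library and in no target library. CNOT8-001 (chr5:154238106-154256353, GRCh37) had 1.52, 1.63 and 1.38 FPKM in target libraries, against 52.7, 53.8 and 50.2 FPKM in control libraries. It was low in every target library and high in every control library, and the groups lay far apart. Its share of the summed FPKM of the 12 CNOT8 transcripts was 2.29%, 2.76% and 2.28% in target libraries, against 80.1%, 81.4% and 82.2% in control libraries. The mean shares were 2.44% ± 0.276 and 81.2% ± 1.05 (SD, n = 3 each), a difference of -78.8 percentage points. The difference on the log2(FPKM + 1) scale, target minus control, was -4.41 with a standard error of 0.08. With 0.01 added to the FPKM in place of 1 it was -5.11.

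In target libraries another CNOT8 transcript took the largest share, and not the same one in each library. CNOT8-010 (chr5:154238077-154256352) had 53.4, 44.9 and 2.23 FPKM in target libraries 1, 2 and 3, against 3.60, 0.684 and 1.70 FPKM in control libraries. It was high in target libraries 1 and 2, and in target library 3 it stood within the control range. CNOT8-006 (chr5:154237812-154256352) had 3.39, 2.54 and 49.7 FPKM in target libraries, against 1.13, 3.62 and 0.639 FPKM in control libraries. It was high in target library 3 alone, so for both of these transcripts the groups overlapped. CNOT8-010 took 80.6%, 76.1% and 3.69% of CNOT8 transcript FPKM in target libraries, against 5.48%, 1.03% and 2.79% in control libraries. CNOT8-006 took 5.13%, 4.30% and 82.4% in target libraries, against 1.71%, 5.47% and 1.05% in control libraries. Without target library 3 the mean difference for CNOT8-006 was 1.97 percentage points, against 27.9 with it, and for CNOT8-010 it was 75.3 points, against 50.4 with it.

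Added together, CNOT8-010 and CNOT8-006 were high in every target library and low in every control library. Their sum was 56.8, 47.5 and 51.9 FPKM in target libraries, against 4.73, 4.30 and 2.34 FPKM in control libraries. As a share this was 84.1% ± 3.21 in target libraries and 5.84% ± 1.77 in control libraries (SD, n = 3 each), a difference of 78.2 percentage points, close in size to the difference of CNOT8-001 with the sign turned. That match follows by arithmetic. Shares sum to 100%, and the other 9 transcripts together held 13.5% in target and 12.9% in control libraries. With CNOT8-001 added, the 3 transcripts came to 58.3, 49.1 and 53.3 FPKM in target libraries, against 57.4, 58.1 and 52.6 FPKM in control libraries. Those ranges overlapped, and the 3 made up 86.5% ± 2.93 of CNOT8 transcript FPKM in target libraries and 87.1% ± 0.951 in control libraries. The summed level of the models with the 292-codon reading frame thus did not separate the groups.

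**Figure D2:**
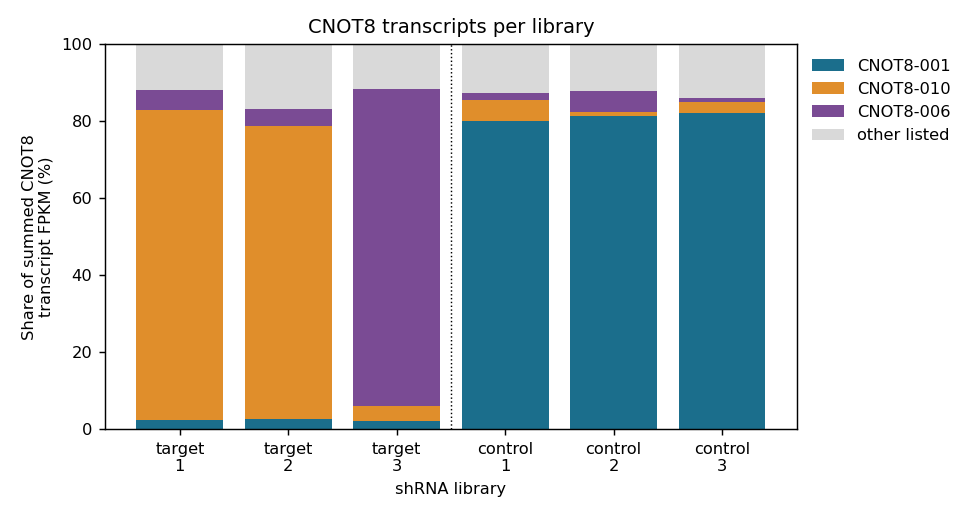
Share of each CNOT8 transcript in the summed CNOT8 transcript FPKM (percent, y axis) in the 3 target shRNA and 3 control shRNA libraries, as stacked bars. CNOT8-010 fills 80.6% and 76.1% of target libraries 1 and 2, CNOT8-006 fills 82.4% of target library 3, and CNOT8-001 fills 80.1% to 82.2% of the control libraries.

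The other 9 CNOT8 transcripts, CNOT8-002, CNOT8-007, CNOT8-011, CNOT8-012, CNOT8-013, CNOT8-015, CNOT8-018, CNOT8-019 and CNOT8-024, were low throughout, between 0 and 2.78 FPKM in single libraries. They summed to 7.91, 9.96 and 7.03 FPKM in target libraries, against 8.36, 8.02 and 8.55 FPKM in control libraries. The highest single value was that of CNOT8-015 in target library 2. CNOT8-024, with 1.204, 1.202 and 1.179 FPKM in target libraries and 1.409, 1.731 and 1.229 FPKM in control libraries, was the member of this set whose groups did not overlap in FPKM. Its shares did overlap. Shares of CNOT8-002 did not, at 0.769%, 0.944% and 0.746% in target libraries against 0.628%, 0.709% and 0.634% in control libraries. Its FPKM values overlapped and were low, between 0.387 and 0.558. All 9 are shorter models in GENCODE 29, with annotated coding parts of 166 to 676 bases.

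Set against the whole transcript table, the CNOT8-001 difference was large but not alone. Across transcripts of genes with at least 2 listed transcripts, 0.758% differed by at least 50 percentage points in mean share, and 13 transcripts differed by at least as much as CNOT8-001, itself included. Genes whose leading transcript in all 3 control libraries led in no target library made up 0.954% of 7548 genes with at least 2 transcripts, and CNOT8 was among them. Of the 62 transcripts of the 10 subunit genes, 37 passed the filter of at least 1 FPKM in at least 3 libraries, 7 of them from CNOT8. In the limma fit over all transcripts, 0.287% of 20890 tested transcripts were called at an adjusted p of 0.05, and 0.139% were called as lower. Of the 37, 1 was called, CNOT8-001, whose difference between the groups chose the set, so its call is no evidence. At an unadjusted p under 0.05 there were 4 subunit transcripts, beside 7.4% of all tested. Shares of 10 of the 62 did not overlap between the groups, beside 11.4% over the table. With the replicate number as a block the limma call of CNOT8-001 was lost, as were all other transcript calls. Since the contrast chose these genes, nothing is read from these counts.

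In these bulk libraries, fewer cells that carry a transcript and less of it per cell cannot be told apart. A further limit touches the CNOT8 exons that matter: on the opposite strand, exons of FAXDC2 in GENCODE 29 overlap 153 exonic bases of CNOT8-001, 163 of CNOT8-010 and 130 of CNOT8-006. FAXDC2 was not among the genes analysed here, and strandedness is not given in the sources used here. Reads from either strand can then not be told apart over those bases. Its part in the CNOT8 values was not tested. The 12 CNOT8 transcripts summed to 1.64 times the gene FPKM of CNOT8 over the 6 libraries, and CNOT8-001 in control libraries was above the gene value. Over the 10 subunit genes, the ratio of summed transcript FPKM to gene FPKM ran from 1.14 for CNOT11 to 5.21 for CNOT2. Transcript sums and gene FPKM are thus not on a common scale, so where both are given side by side below, their spread over libraries is described and not their difference in level.

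CNOT7, the CAF1-type paralog of CNOT8, was the subunit gene with the smallest spread among target libraries. CNOT7, on chromosome 8, had 9.34, 9.43 and 9.39 FPKM in target libraries, against 8.07, 8.73 and 8.80 FPKM in control libraries. Every target value was above every control value, with means of 9.39 ± 0.048 and 8.53 ± 0.405 FPKM (SD, n = 3 each), a ratio of 1.10. Its main transcript CNOT7-001 had 12.8, 13.3 and 13.0 FPKM in target libraries, against 10.5, 11.5 and 11.7 FPKM in control libraries, again without overlap. CNOT7-001 made up 63.1% ± 3.83 of CNOT7 transcript FPKM in target libraries and 51.4% ± 1.70 in control libraries, and led in all 6 libraries. CNOT7-001 codes for 285 codons in GENCODE 29. Beside this difference of 11.7 points, 2 shorter models had lower shares in target libraries. CNOT7-007 (147 codons) had 0.202, 1.96 and 0.119 FPKM in target libraries, against 3.26, 3.69 and 2.96 FPKM in control libraries. CNOT7-002 (244 codons) had 4.59, 4.11 and 4.93 FPKM in target libraries, against 5.45, 5.69 and 5.68 FPKM in control libraries. These differences of CNOT7 were small beside that of CNOT8-001, and none of the CNOT7 transcripts was called. Where the 2 CAF1-type genes are set side by side on the gene FPKM scale, CNOT8 was the higher in every library, at 35.4 FPKM or more, against 9.43 FPKM or less for CNOT7.

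The CCR4-type nucleases stood lower than CNOT8. CNOT6 (chr5:179921412-180005405) had 13.96, 13.8 and 13.4 FPKM in target libraries, against 13.2, 12.5 and 12.4 FPKM in control libraries, without overlap and at a ratio of means of 1.08. CNOT6L (chr4:78634541-78740769) had 5.60, 5.63 and 6.33 FPKM in target libraries, against 5.35, 2.98 and 5.61 FPKM in control libraries. Its groups overlapped, and control library 2 was the low one. The means of CNOT6L were 5.85 ± 0.413 FPKM in target and 4.65 ± 1.45 FPKM in control libraries (SD, n = 3 each).

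Both CCR4-type genes were led by different transcripts in different libraries, and the leading transcripts did not divide by hairpin. CNOT6-201 had 0.787, 14.37 and 14.01 FPKM in target libraries, against 0.728, 13.0 and 12.5 FPKM in control libraries. CNOT6-202 had 13.4, 0 and 0 FPKM in target libraries, against 12.8, 0 and 0 FPKM in control libraries. Replicate 1 of each group was thus listed under CNOT6-202 and replicates 2 and 3 of each group under CNOT6-201. As with CNOT8, these 2 models have the same coding bases (1671) and differ in 262 bases, of which 258 lie before the start codon. CNOT6L was led by CNOT6L-004 in target library 1 (6.48 FPKM), by CNOT6L-005 in control library 2 (5.03 FPKM) and by CNOT6L-001 in the other 4 libraries (5.05 to 6.03 FPKM). CNOT6L-001 was listed at 0 in control library 2.

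The scaffold gene CNOT1 (chr16:58553855-58663790, minus strand) was next to CNOT8 in level. It had 32.7, 34.0 and 35.7 FPKM in target libraries, against 31.4, 34.3 and 34.2 FPKM in control libraries, with overlap and a log2 difference of 0.03. Its transcripts were far less even than the gene. CNOT1-003, its transcript of highest mean, had 8.77, 38.3 and 0.083 FPKM in target libraries, against 5.52, 0.013 and 28.1 FPKM in control libraries, so it was high in 1 library of each group. The 9 listed CNOT1 transcripts summed to 41.2, 58.1 and 19.3 FPKM in target libraries, against 52.5, 20.8 and 64.6 FPKM in control libraries. The sum thus ranged over 19.3 to 64.6 FPKM where the gene value ranged over 31.4 to 35.7 FPKM.

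Of the NOT module, CNOT3 (chr19:54641444-54659419) had 8.34, 8.85 and 8.59 FPKM in target libraries, against 7.69, 7.90 and 8.74 FPKM in control libraries, with overlap. CNOT3-001 led in all 6 libraries, at 66.9% ± 6.82 of CNOT3 transcript FPKM in target and 69.4% ± 7.63 in control libraries. CNOT2 (chr12:70636774-70748773) was the lowest of the 10 genes by mean gene FPKM. It had 3.15, 5.37 and 3.55 FPKM in target libraries, against 5.51, 5.47 and 3.83 FPKM in control libraries. The groups overlapped, and 1 library in each group stood apart from the others of its group. CNOT2-201 was high in the libraries where the gene was high, with 4.32, 17.4 and 5.87 FPKM in target libraries, against 18.3, 19.0 and 8.80 FPKM in control libraries. CNOT2-024, a model of 182 codons beside the 540 of CNOT2-201, had 5.43, 1.18 and 5.08 FPKM in target libraries and was listed at 0 in all 3 control libraries. It passed the filter through the target libraries alone. Its share of CNOT2 transcript FPKM was 27.9%, 4.60% and 23.5% in target libraries.

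The genes of the CNOT10 and CNOT11 module differed little between the groups in gene FPKM, CNOT11 without overlap and CNOT10 with it. CNOT11 (chr2:101869264-101886778) had 23.3, 25.1 and 24.9 FPKM in target libraries, against 22.6, 23.1 and 22.9 FPKM in control libraries. Target values were all above control values, at a ratio of means of 1.07, and CNOT11-001 made up 92.0% ± 1.42 of its transcript FPKM in target and 91.8% ± 1.68 in control libraries. CNOT10 (chr3:32726637-32815367) had 7.05, 6.89 and 7.29 FPKM in target libraries, against 7.24, 7.57 and 6.53 FPKM in control libraries, with the control libraries on both sides of the target ones. CNOT10-201, a model of 804 codons, had 0, 1.19 and 1.07 FPKM in target libraries, against 1.80, 1.83 and 5.46 FPKM in control libraries. Its shares were 6.31% ± 5.56 in target and 33.7% ± 18.4 in control libraries, a difference of -27.4 points without overlap. CNOT10-003, the CNOT10 transcript of highest mean, had 6.02, 4.07 and 8.71 FPKM in target libraries, against 7.66, 0 and 1.93 FPKM in control libraries.

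The ubiquitin ligase gene CNOT4 (chr7:135046547-135194875) had 5.78, 4.96 and 5.75 FPKM in target libraries, against 4.57, 5.38 and 4.66 FPKM in control libraries, with overlap. CNOT4-202, its transcript of highest mean, had 2.88, 5.22 and 4.59 FPKM in target libraries, against 1.32, 4.99 and 0.978 FPKM in control libraries. CNOT9, which docks recruiting proteins such as TNRC6 onto CNOT1 and is not among the 10 genes, had 3.81, 4.01 and 4.02 FPKM in target libraries, against 3.89, 10.6 and 3.86 FPKM in control libraries. Control library 2 alone set its difference of means, 3.95 ± 0.121 FPKM in target against 6.13 ± 3.90 FPKM in control libraries. CNOT9-001 had 0.779, 2.14 and 1.18 FPKM in target libraries, against 2.82, 11.6 and 2.98 FPKM in control libraries, without overlap. CNOT9-002 had 13.1, 8.53 and 12.6 FPKM in target libraries, against 6.45, 6.84 and 4.82 FPKM in control libraries. CNOT9-002 made up 85.1% ± 6.83 of CNOT9 transcript FPKM in target and 53.2% ± 14.9 in control libraries, a difference of 31.9 points without overlap.

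**Figure D3:**
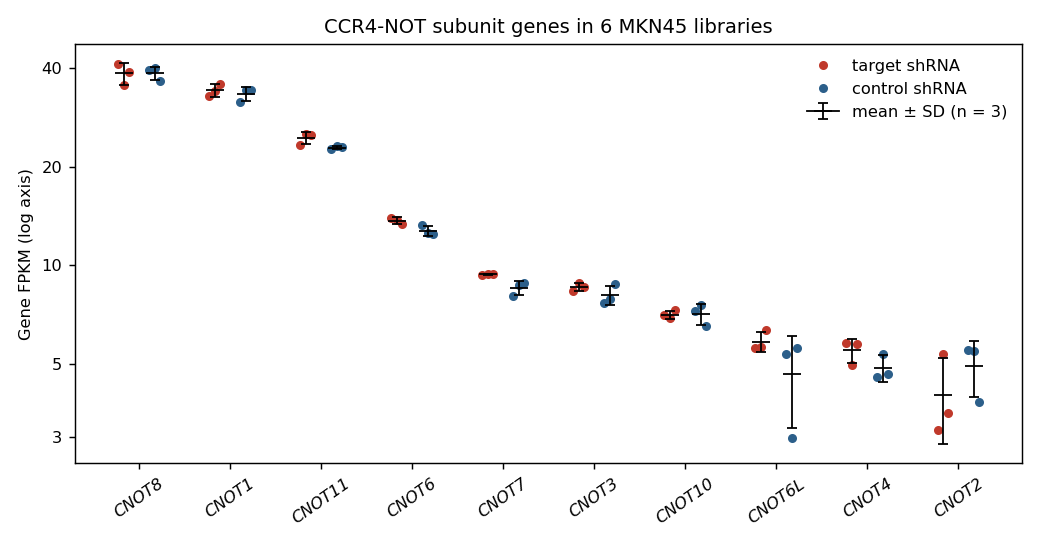
Gene FPKM (log axis) of the 10 subunit genes in 3 target shRNA libraries (left of each pair) and 3 control shRNA libraries, one point a library, with bars for the mean and SD. CNOT8 and CNOT1 lie between 31.4 and 41.1 FPKM in every library, and for CNOT11, CNOT6 and CNOT7 all target points lie above all control points.

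By mean gene FPKM over the 6 libraries the genes ran CNOT8, CNOT1, CNOT11, CNOT6, CNOT7, CNOT3, CNOT10, CNOT6L, CNOT4 and CNOT2. Ranges over libraries overlapped between CNOT8 and CNOT1, between CNOT7 and CNOT3, between CNOT6L and CNOT4, and between CNOT4 and CNOT2. The other neighbours in that order did not overlap. The order holds for gene FPKM only. By summed transcript FPKM, CNOT2 averaged 22.2 in target and 24.4 in control libraries, above CNOT7 at 20.7 and 21.9. All 10 genes passed the filter. Their median log2 difference was 0.08, beside 0.03 over all tested genes, with 7 above 0 and 3 below, beside 61.2% of all tested genes above 0. Limma called 0 of the 10 at an adjusted p of 0.05, beside 0.749% of 10675 tested genes, or 0.534% called as higher and 0.215% called as lower. At an unadjusted p under 0.05 there was 1, CNOT7, beside 16.1% of all tested. Groups of 3 of the 10 did not overlap, all higher in target libraries, beside 23.7% of all tested genes in either direction.

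Leading transcripts differed between libraries for most of the genes. CNOT3, CNOT7 and CNOT11 were led by the same transcript in all 6 libraries, and the other 7 by more than 1. Over the table, 51% of 7548 genes with at least 2 transcripts were led by the same transcript in all 6 libraries. Of the 7, CNOT8 was the gene whose leading transcript in the control libraries led in no target library. For CNOT1, CNOT2, CNOT4, CNOT6, CNOT6L and CNOT10, at least 1 transcript led in libraries of both groups.

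**Figure D4:**
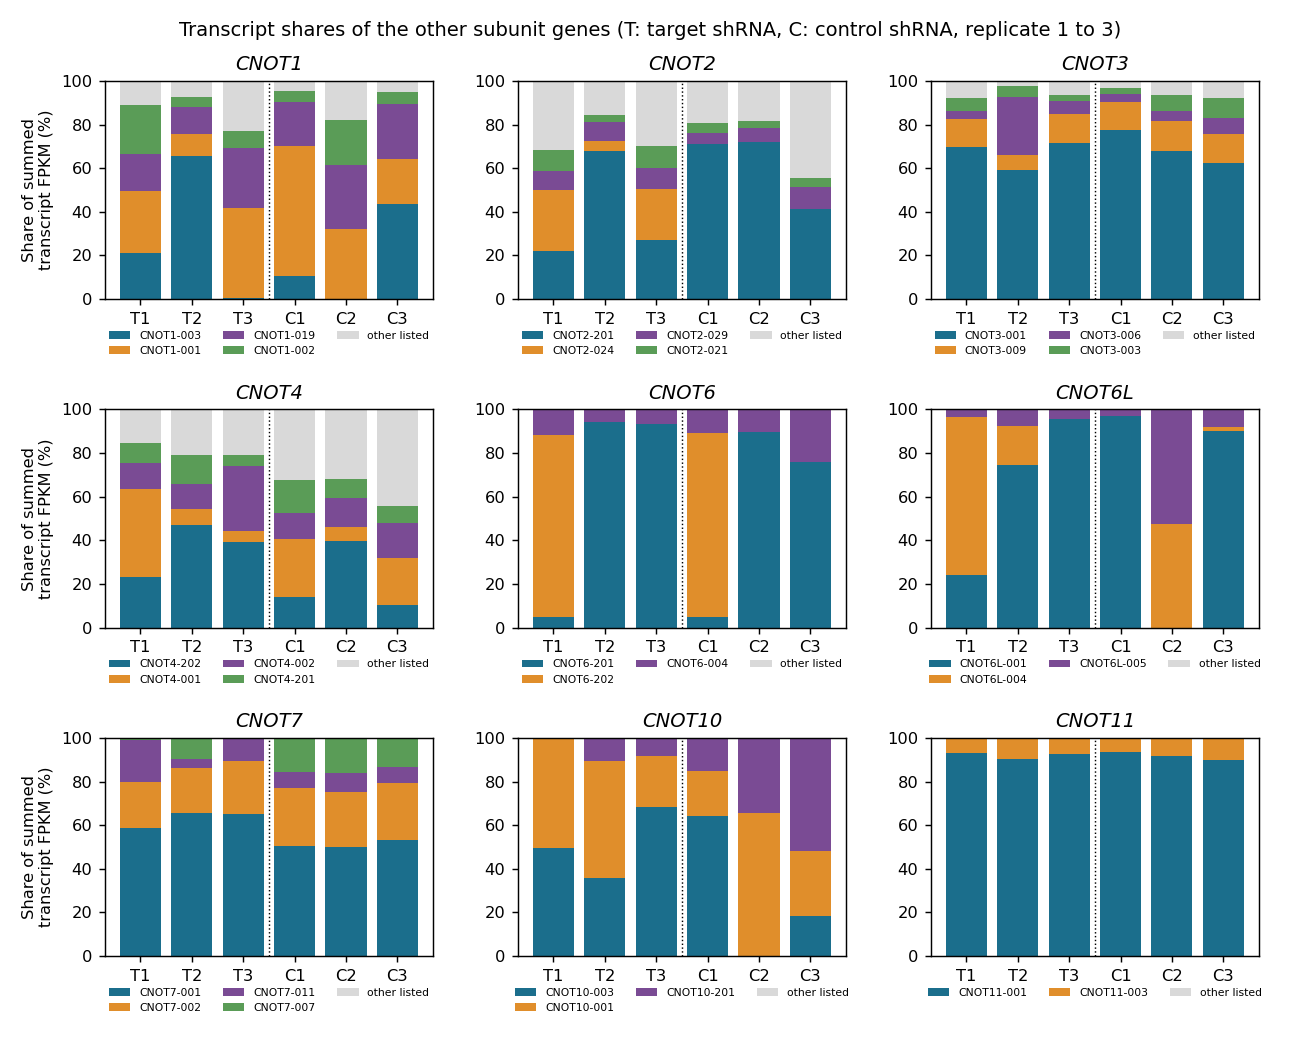
Share of each transcript in the summed transcript FPKM of its gene (percent, y axis) for the 9 other subunit genes, in 3 target (T) and 3 control (C) shRNA libraries, with transcripts beyond the 4 of highest mean in grey. CNOT6 is led by CNOT6-202 in replicate 1 of both groups and by CNOT6-201 in the other libraries, and CNOT3, CNOT7 and CNOT11 keep theirs in all 6 libraries.

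The genes around CCR4-NOT in mRNA decay were examined through 7 lists of 81 genes, of which 73 were in the table and 72 were tested. Limma called 0 of the 72 at an adjusted p of 0.05, beside 0.749% of 10675 tested genes. At an unadjusted p under 0.05 there were 12, of which 10 were higher and 2 lower in target libraries, beside 16.1% of all tested genes. The median log2 difference of the 72 was 0.03, as it was over all tested genes. The genes named from each list below are the 2 of smallest p, so a lack of overlap in them partly follows from that choice. Groups of 23.7% of all tested genes did not overlap.

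BTG and TOB proteins bind CNOT7 and CNOT8 and bring them to mRNAs. All 5 tested genes of this list had log2 differences above 0, where 61.2% of all tested genes did, and their median was 0.11, beside 0.03 over all. At an unadjusted p under 0.05 there were 3 of the 5, beside 16.1% of all tested genes. TOB1 had 87.6, 85.2 and 86.1 FPKM in target libraries, against 75.2, 57.3 and 73.9 FPKM in control libraries, without overlap (limma adjusted p 0.231). TOB2 averaged 22.7 ± 0.533 FPKM in target and 21.1 ± 0.287 FPKM in control libraries (SD, n = 3 each; limma adjusted p 0.280). Neither passed the threshold.

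Among 15 tested RNA-binding proteins that recruit the complex, 7 were above 0 and 8 below, with a median of -0.01. The Argonaute partner TNRC6A averaged 5.25 ± 0.467 FPKM in target and 4.34 ± 0.462 FPKM in control libraries. The cytoplasmic polyadenylation factor CPEB4 averaged 2.43 ± 0.111 FPKM in target and 2.76 ± 0.174 FPKM in control libraries (SD, n = 3 each). Of the 8 genes put in a list of other deadenylases, 5 were above 0, with a median of 0.02. Whether each of them removes poly(A) tails was not examined. ANGEL2 averaged 4.43 ± 0.182 FPKM in target and 3.75 ± 0.261 FPKM in control libraries. NOCT, also named CCRN4L, averaged 4.89 ± 0.250 and 4.39 ± 0.145 FPKM in target and control libraries. None of these passed the threshold.

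Poly(A)-binding proteins coat the tail that the complex removes, and 3 of the 6 tested were above 0. PABPC4 averaged 21.5 ± 1.90 FPKM in target and 25.3 ± 1.48 FPKM in control libraries, without overlap, and PABPN1, the nuclear form, averaged 24.3 ± 3.60 and 21.0 ± 0.362 FPKM in target and control libraries. Decapping and 5' to 3' decay follow deadenylation, and 14 of the 20 tested genes were above 0, with a median of 0.04. LSM5 and LSM4, both of the LSM ring that binds shortened tails, had the 2 smallest p of that list. LSM5 had 6.87, 7.11 and 6.81 FPKM in target libraries, against 5.37, 5.94 and 5.71 FPKM in control libraries (limma adjusted p 0.122). LSM4 had 43.0, 41.4 and 38.2 FPKM in target libraries, against 36.4, 31.9 and 31.8 FPKM in control libraries (limma adjusted p 0.161). Groups of both did not overlap, as was so for 23.7% of all tested genes, and neither passed the threshold.

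The exosome degrades deadenylated mRNA from its 3' end. Of 16 tested genes of the exosome and its SKI cofactor, 11 were above 0, with a median of 0.08. The core subunit EXOSC8 averaged 6.06 ± 0.320 FPKM in target and 5.08 ± 0.262 FPKM in control libraries (SD, n = 3 each; limma adjusted p 0.197). EXOSC2, another core subunit, had 14.9, 16.0 and 16.0 FPKM in target libraries, against 9.40, 9.10 and 14.7 FPKM in control libraries (limma adjusted p 0.255). Control library 3 stood near the target libraries. Limma called EXOSC2 as higher only where that library was left out, so nothing is read from that call. TNKS1BP1, a CCR4-NOT partner protein, averaged 24.1 ± 3.37 FPKM in target and 20.8 ± 2.78 FPKM in control libraries, with overlap.

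**Figure D5:**
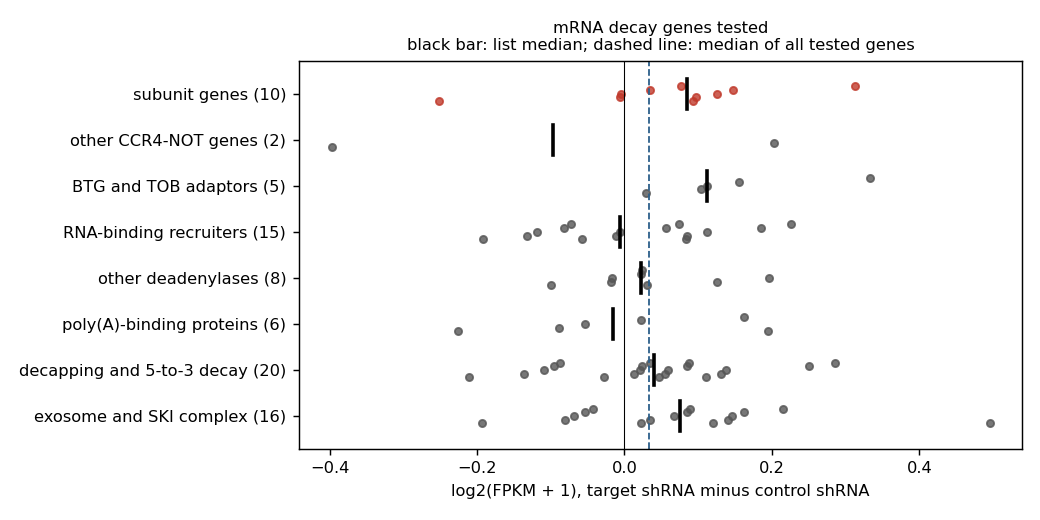
Log2 difference of log2(FPKM + 1), target minus control (x axis), for the 10 subunit genes and the tested genes of 7 mRNA decay lists, one point a gene, with a black bar for each list's median and a dashed line for the median of all tested genes (0.03). List medians lie between -0.10 and 0.11, and single genes between -0.40 and 0.50.

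The genes whose level over the 6 libraries was most like that of CNOT8, by Pearson's r of log2(FPKM + 1) over 6157 genes averaging 5 FPKM or more, were XRCC5 (r = 0.987), MED20 (r = 0.978) and SPAG7 (r = 0.977). XRCC5 had 41.2, 38.0 and 40.3 FPKM in target libraries, against 40.2, 40.3 and 38.4 FPKM in control libraries. With 6 libraries and narrow ranges 32 genes had r above 0.9, and all points share the libraries' scaling, so these values are a description.

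Over the series, the summed gene FPKM was 186226 to 192101 a library, no libraries held identical values, and the number of reads is unknown. tcons_00001221 has no row in the tables analysed here, so its own level was not checked. Of the epithelial markers 7 of 12 were among the genes analysed. Their sum was 197 to 207 FPKM in target libraries and 213 to 220 FPKM in control libraries. MET had 77.0 to 88.5 FPKM, EPCAM 5.96 to 7.92 FPKM and TFF1 0.420 to 1.57 FPKM. CDH1, KRT19, CEACAM5, CEACAM6 and TFF3 were not among the genes analysed. CLDN4 had 10.6, 0.0586 and 0.175 FPKM in target libraries, against 10.96, 10.03 and 10.63 FPKM in control libraries. Of the mesenchymal markers 6 of 10 were among the genes analysed, and their sum was 437 to 452 FPKM in target libraries and 493 to 513 FPKM in control libraries, mostly COL5A1 and VIM. The part of these markers in the CCR4-NOT values was not tested. Genes on the opposite strand overlap CNOT3 (LENG1), CNOT1 (SETD6), CNOT11 (TBC1D8) and CNOT7 (VPS37A), and their reads cannot be told apart there without strand.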

How the data were processed

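The 6 MKN45 RNA-seq libraries, 3 per hairpin, were grouped and numbered by their titles. The authors deposited FPKM per gene and per transcript. Positions are on GRCh37 (hg19), per the submitters' processing notes. Aligner, quantification tool, annotation and strandedness: not given in the sources used here. Without read counts, neither depth nor counting error is known. Every row was protein-coding with a mean of at least 0.50 FPKM in its higher group, and genes below that were not analysed here.

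Values were analysed as log2(FPKM + 1), which understates differences of low genes, with limma 3.58.1 (limma-trend) in R 4.3.3, over all genes and all transcripts with at least 1 FPKM in at least 3 libraries. P-values were adjusted by Benjamini-Hochberg over each whole table, at a threshold of 0.05. Transcript shares are percent of the summed transcript FPKM of the gene. How fragments that fit several models of a gene were divided between them is not known, and its effect on shares was not tested. Transcript structures were read from GENCODE 29 by transcript identifier, without converting coordinates, and 52 of the 62 subunit transcripts matched. Promoter windows are from RefSeq (GRCh38.p14). Protein sequences were not used here. Python 3.11.15, pandas 2.3.3 and matplotlib 3.10.9 served for tables and plots. The fits were tested on simulated data.

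The genes, lists and tests were chosen with earlier results of these data known. Named were all subunit genes and CNOT9, all CNOT8 transcripts, and of each other gene the transcript of highest mean and any called. In subunit genes other than CNOT8, the 3 transcripts of largest share difference without overlap were also named (CNOT10-201, CNOT2-024 and CNOT7-001). CNOT7-001 was already named as the CNOT7 transcript of highest mean. Of each decay list the genes called or else the 2 of smallest p were named, and the 3 genes most like CNOT8. Other transcripts, those of CNOT9 included, and CLDN4 were named after their values were seen. Alternatives were thresholds 0.1 and 0.01, the replicate block, limma without the trend, limma made robust, median rescaling, quantile normalization, filters of 5 FPKM on the mean or none, pseudocounts 0.1 and 0.01, other share denominators, median shares and leaving out each library.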

Additional observations from a re-analysis of the deposited data

How the results depend on the processing

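The count of called subunit genes was 0 under all 17 alternatives, with 0 to 2 at an unadjusted p under 0.05. CNOT8-001, whose difference chose the set, had log2 differences of -5.11 to -4.37 under 15 alternatives. With the replicate number as a block, 0 subunit transcripts were called, against 1 without it, and over the whole series no transcript (0) and 10 genes, against 60 transcripts and 80 genes without it. Deviations of same-numbered libraries from their group means correlated at -0.013, 0.019 and 0.066 for genes and 0.011, 0.0028 and 0.027 for transcripts, so the numbers were not taken to pair the libraries. The leading transcript of CNOT6 did follow the replicate number in both groups, so a pairing in the design is not settled. Leaving out each library gave 1 to 2 called subunit transcripts, and the further one, CNOT2-024 without target library 2, is listed at 0 in all control libraries, so nothing is read from it. Among decay genes, leaving out each library gave 0 to 1 called. The 1 was EXOSC2 without control library 3, the control library where it was highest, so nothing is read from it.

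The difference in share of CNOT8-001 was -78.8 percentage points, and -79.3 to -78.3 on leaving out each library. Over transcripts with at least 1 FPKM in at least 3 libraries it was -82.6 points and over the gene FPKM -131 points, since transcript FPKM sums above gene FPKM. For CNOT8-010 and CNOT8-006 together, with 78.2 points, these were 81.7 and 125 points, and 77.2 to 80.1 on leaving out each library. CNOT8-010 (50.4 points) ranged over 36.8 to 75.3 and CNOT8-006 (27.9 points) over 1.97 to 41.0 points on leaving out each library. By median shares they came to 73.3 and 3.41 points, and over the gene FPKM to 82.4 and 43.1 points. No share difference changed direction. Over the whole tables, called genes numbered 23 to 42 on leaving out each library and 52 at a mean of at least 5 FPKM. Called transcripts numbered 39 and 15 with pseudocounts of 0.1 and 0.01, 18 at a mean of at least 5 FPKM and 33 to 53 on leaving out each library. With 3 libraries a group and depth unknown, counting error could not be set beside these values.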
